A study of Mus musculus with 17 samples.

Results

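The genes described here are 10 components of major histocompatibility complex (MHC) class I antigen presentation, H2-K1, H2-D1, B2m, Tap1, Tap2, Tapbp, Nlrc5, Psmb8, Psmb9 and Psmb10, chosen by their role and not by a measured value. They were found by matching the Ensembl gene identifiers of the count table to gene symbols in the Gencode vM21 annotation, and they are 10 of 55450 annotated genes. RNA was sequenced from 17 peritoneal tumors grown from AB12, a mouse mesothelioma line that forms tumors in BALB/c mice, each tumor taken from a female BALB/c mouse of 8 weeks. The untreated tumors were taken on day 6 (d6, n = 3), day 10 (d10, n = 5) or day 14 (d14, n = 3) after intraperitoneal injection of the cells. The treated tumors came from mice given anti CTLA-4 antibody (clone 9D9, 200 µg per injection), which blocks an inhibitory receptor of T cells, and were taken at d10 (n = 3) or d14 (n = 3). All groups share the line, the strain and the site of injection, and the injection days of the treated d10 tumors are not given in the sources used here. A whole tumor holds tumor cells together with infiltrating leukocytes and stroma, so that in these bulk measurements fewer cells of a type and less RNA per cell cannot be told apart.

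Class I molecules display fragments of a cell's own proteins to CD8 T cells. A heavy chain, encoded in the mouse by H2-K1, H2-D1 and their relatives, pairs with beta-2 microglobulin (B2m). The peptides are cut by the proteasome, in which interferon-induced subunits (Psmb8, Psmb9 and Psmb10) can take the places of the constitutive catalytic subunits (Psmb5, Psmb6 and Psmb7). The peptides then enter the endoplasmic reticulum through a transporter formed by Tap1 and Tap2, to which tapasin (Tapbp) tethers the waiting class I molecule. Nlrc5 is a transactivator that binds the promoters of class I genes and of several of the other members, and most of these genes respond to interferon gamma. Tumors that lose this machinery can become hard for CD8 T cells to see.

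Total counts ranged from 46371577 to 96759833 per library, and the smallest count of a member in any library was 4302, for Nlrc5. The libraries fell into 3 sets that did not follow the groups, by the levels of 244 processed pseudogenes, none of them a member. Set A held the 3 untreated d6 tumors and replicates 1 to 3 of untreated d10. Set B held replicates 4 and 5 of untreated d10 and the 3 anti CTLA-4 treated d10 tumors, and set C held all d14 tumors, untreated and treated. The libraries were sequenced as 75-base pairs on an Illumina NextSeq or 100-base pairs on a NovaSeq, and the authors dropped genes that separated a sequencing project from the others before their own analysis, a filter that the table used here does not carry. Which library belonged to which instrument or project is not given in the sources used here, so that the sets could not be matched to them, and the number of sets was chosen with the data in view. Comparisons of d10 with d6 (through replicates 1 to 3), of treated with untreated d10 (through replicates 4 and 5) and of treated with untreated d14 lie within a set. Every comparison of d14 with an earlier day crosses these 3 sets, and there day and library set cannot be told apart. When only 2 sets were made, B and C joined, and then d14 against treated d10 or against replicates 4 and 5 of untreated d10 lies within a set, while d14 against d6 or against replicates 1 to 3 still crosses. Summed levels of 7 mesothelial markers were 1878 to 4036 CPM (counts scaled by library size, with TMM normalization over all libraries) over the 17 tumors, with none of the markers at 0. Markers of pancreatic acinar cells summed to between 3.64 and 2641 CPM in the treated d14 tumors and to at most 2.45 CPM elsewhere, and their part in the results was not tested.

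Of the 10 members, 7 lie on chromosome 17 in the MHC, with Psmb9, Tap1, Psmb8 and Tap2 side by side between positions 34181987 and 34216321 of GRCm38. H2-K1 spans chr17:33996017-34000347 on the minus strand, H2-D1 chr17:35262730-35267499 on the plus strand and Tapbp chr17:33915899-33929292 on the plus strand. B2m is on chromosome 2 (chr2:122147686-122153083), and Nlrc5 (chr8:94434356-94527272) and Psmb10 (chr8:105935735-105938444) are on chromosome 8. The annotated exons of Tap1 and Psmb9 overlap on opposite strands, and since the strand setting of the counting is not given, reads from that overlap cannot be told apart. Of the stretches of 75 bases in the Tap1 transcripts, 2.4% also occur in Psmb9, and 3.44% of those of Psmb9 occur in Tap1. H2-K1 and H2-D1 belong to a family of near copies. Of the 75-base stretches in their reference transcripts, 3.1% and 5.56% were shared with other genes, and at 100 bases 0.957% and 3.59%, whereas B2m and Psmb10 shared none at either length. BALB/c mice carry another MHC haplotype than the reference strain, so that reads of H2-K1 and H2-D1 may also have been lost in alignment. Differences between libraries in these genes are therefore less certain than those in B2m.

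Promoter sequences from RefSeq (GRCm38.p6) were present for 8 of the 10 members, B2m, H2-D1, H2-K1, Psmb10, Psmb8, Psmb9, Tap1 and Tapbp. Where a gene had several windows, that with the highest coordinate was kept, and its start can differ from the Gencode start. The windows of H2-K1, a heavy chain, and B2m, the light chain, are shown. Of these 8 members, they lay furthest from the members' median profile over the libraries, which is described below. They are written 5′ to 3′ on the gene's strand and end at or just before the annotated start of the gene. Capitals mark matches to the interferon-stimulated response element core (GAAANNGAAA) or to the kappaB motif, each searched on both strands.
H2-K1, chr17:34000348-34000547, minus strand: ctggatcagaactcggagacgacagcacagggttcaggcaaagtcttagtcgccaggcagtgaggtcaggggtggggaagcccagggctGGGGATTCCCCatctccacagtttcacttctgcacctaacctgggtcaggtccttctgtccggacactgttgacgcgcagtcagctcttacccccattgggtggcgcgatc
B2m, chr2:122147487-122147685, plus strand: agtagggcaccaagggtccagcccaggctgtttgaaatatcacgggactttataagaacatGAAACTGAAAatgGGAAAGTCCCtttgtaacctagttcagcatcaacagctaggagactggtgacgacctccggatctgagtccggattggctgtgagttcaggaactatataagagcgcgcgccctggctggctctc

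The RefSeq window of H2-D1 carries the same kappaB match as that of H2-K1, and 29 of 30 bases around it were the same in both genes. These stretches are shown side by side with the stretch of Psmb8 that holds a gamma-activated site (GAS, TTCNNNGAA), with the match in capitals.
H2-K1, chr17:34000438-34000467, minus strand: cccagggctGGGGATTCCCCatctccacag
H2-D1, chr17:35262914-35262943, plus strand: cccagggctGGGGATTCCCCatctcctcag
Psmb8, chr17:34198089-34198118, plus strand: cctccgctgTTCCCAGAAgatgcccccccc
The H2-D1 and Psmb8 stretches lie inside these genes as annotated in Gencode, which start at positions 35262730 and 34197721 of chromosome 17. In the 250 bases before the RefSeq start used, 3 of the 8 members held a kappaB match (B2m, H2-D1 and H2-K1), against 7.25% of the windows of that length in the RefSeq table. The response element core was found in B2m (2.98% of windows) and the gamma-activated site in Psmb8 (7.02%). A CCAAT box was found in 6 of the 8 (33.8% of windows). A match to these letters is a description of the reference sequence and was not linked to any measured value. The RefSeq starts of Psmb9 and Tap1 face away from each other and lie 225 bases apart. Their windows overlap, and the CCAAT matches of Psmb9 and Tap1 are the same site, counted for both genes.

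Levels are compared between genes per kilobase of annotated exon. B2m had the highest level in all groups, from 3881 ± 130 CPM per kb (SD, n = 3) in treated d14 tumors to 7797 ± 716 CPM per kb (SD, n = 3) in untreated d6 tumors. H2-D1 followed, with group means between 891.2 and 1376 CPM per kb. In untreated d6 tumors H2-K1 (350.3 ± 40.2 CPM per kb, SD, n = 3) and Tapbp (340 ± 26.1 CPM per kb, SD, n = 3) came next and did not differ beyond their spread. Psmb10 (276.4), Psmb8 (221.9), Tap1 (155.6), Tap2 (107) and Psmb9 (83.5 CPM per kb) lay below them in that order, each further from its neighbour than the SDs of both. The lowest mean was that of Nlrc5, at 13.6 ± 3.81 CPM per kb (SD, n = 3). In untreated d14 tumors the order was closer. Tapbp (182.1 ± 33.6), H2-K1 (174.5 ± 18.9), Psmb8 (142 ± 16), Psmb10 (115.1 ± 17.6) and Tap1 (106.1 ± 13.1 CPM per kb, SD, n = 3) each lay within the summed SDs of its neighbour in that order, as did Tap2 (62.4 ± 13.9) and Psmb9 (58.5 ± 7.18 CPM per kb, SD, n = 3). From the lowest to the highest of the 17 libraries, the range of the normalized CPM was smallest for Tap1 (1.86-fold) and largest for Psmb10 (3.2-fold), and the plot of the levels shows each tumor.

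**Figure D1:**
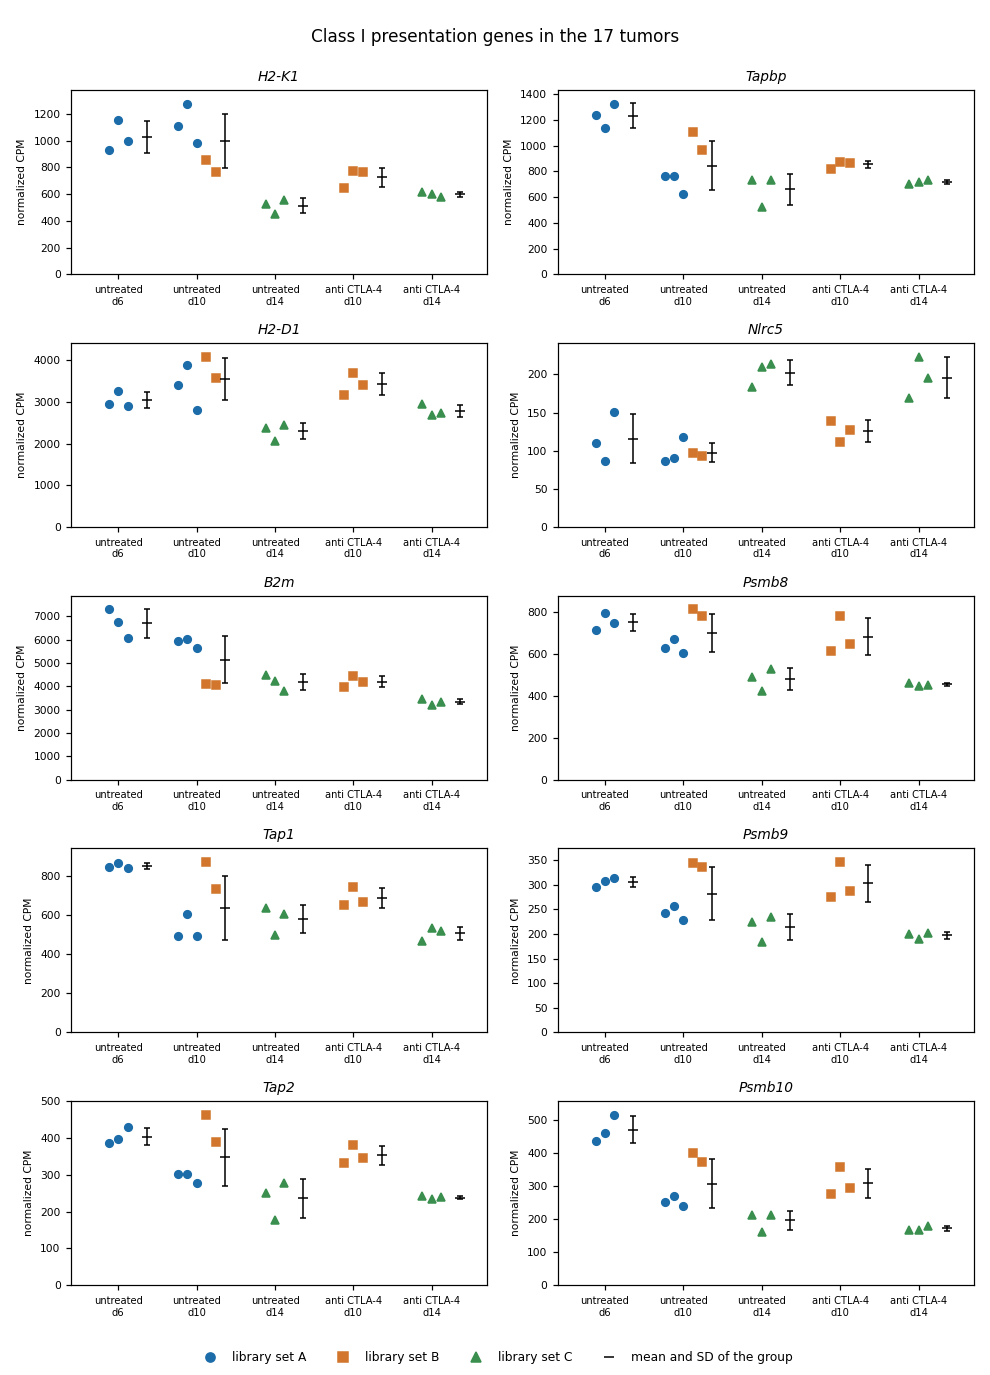
Normalized CPM (vertical axis, starting at 0) of the 10 members in each tumor, by group, with symbols for the library sets and the mean and SD of each group in black. In untreated d10, replicates 4 and 5 (set B) lie apart from replicates 1 to 3 (set A) for Tap1, Tap2, Tapbp, Psmb8, Psmb9, Psmb10, B2m and H2-K1. Nlrc5 is highest in the 6 d14 tumors.

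The step from the early to the intermediate phase was assessed within set A, by comparing replicates 1 to 3 of untreated d10 with untreated d6. The peptide transporter, tapasin and 2 of the 3 immunoproteasome subunits were lower at d10, and neither heavy chain passed the test. Of the 10 members, 5 passed an adjusted p of 0.05 in edgeR's quasi-likelihood test, all of them lower, where 27% of the 16510 genes tested passed and 11.8% passed with a lower level.

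Psmb10, a subunit of the immunoproteasome, stood at 437.2, 460.5 and 515.9 CPM in the d6 tumors and at 252.7, 270.8 and 241.1 CPM in replicates 1 to 3 of d10. The groups did not overlap, which was so for 43.9% of all genes, and the log2 fold change was -0.86 (SE 0.0982, adjusted p = 3.5e-04). Tapbp, which bridges the transporter and the class I molecule, stood at 1240, 1136 and 1324 CPM at d6 and at 762.1, 760.6 and 622.8 CPM in these d10 tumors (log2 fold change -0.76, SE 0.109, adjusted p = 0.0011). Here too each d10 value was below each d6 value. Tap1, a chain of the transporter, stood at 846.4, 868.3 and 841.9 CPM at d6 and at 492.4, 606.8 and 494.1 CPM at d10 (log2 fold change -0.66, SE 0.103, adjusted p = 0.0017). No d10 value of these replicates reached a d6 value. Tap2, the other chain, fell by 0.43 on the log2 scale (SE 0.089, adjusted p = 0.0069), and Psmb9 by 0.31 (SE 0.0863, adjusted p = 0.027). With each of the 6 libraries left out in turn, Psmb10, Tapbp, Tap1 and Tap2 passed in 6 of 6 fits and Psmb9 in 1 of 6.

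The other members of this comparison did not pass. Psmb8 had a log2 fold change of -0.22 (SE 0.0881, adjusted p = 0.094), B2m of -0.17 (SE 0.097, adjusted p = 0.23) and Nlrc5 of -0.21 (SE 0.197, adjusted p = 0.47). The heavy chains H2-K1 (0.15, SE 0.118, adjusted p = 0.37) and H2-D1 (0.17, SE 0.12, adjusted p = 0.32) had values above 0. Over the same tumors T cell markers rose, with 5 of 5 passing, all higher, and a summed level of 42.1 to 47.5 CPM at d6 and 156.7 to 190.2 CPM at d10. Of 6 macrophage markers, 2 passed higher and 1 lower. The part of these cells in the members' levels was not tested.

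With all 5 untreated d10 tumors, as the groups were labelled, 1 of the 10 members passed against d6, where 17.5% of 16866 genes did. That member was Psmb10, with a log2 fold change of -0.59 (SE 0.18, adjusted p = 0.048). It no longer passed in 6 of the 8 fits that each left out a library, those without replicate 1, 2 or 3 of d6 or of d10 (adjusted p of 0.066 to 0.17 in those fits). Replicates 4 and 5 on their own, in set B, gave 2 passing members against d6, where 47.1% of genes passed. H2-D1 was higher (log2 fold change 0.35, SE 0.112, adjusted p = 0.034) and B2m lower (-0.71, SE 0.123, adjusted p = 0.0028), and neither had passed in replicates 1 to 3.

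The untreated d10 tumors carry the same label, and yet replicates 4 and 5 differed from replicates 1 to 3 in 7 of the 10 members, where 25.3% of 17321 genes passed, 12.4% higher and 12.9% lower. This comparison was added with the data in view. Tap1, at 873 and 735.4 CPM in replicates 4 and 5, was above each of replicates 1 to 3 (log2 fold change 0.59, SE 0.14, adjusted p = 0.022). Psmb10 (0.59, SE 0.104, adjusted p = 0.009), Tapbp (0.53), Tap2 (0.52) and Psmb9 (0.48) were also higher. B2m, at 4083 and 4060 CPM against 5931, 6047 and 5622 CPM, was lower (-0.53, SE 0.122, adjusted p = 0.02), as was H2-K1, at 855.1 and 769.4 CPM against 1112, 1276 and 983.1 CPM (-0.48, SE 0.142, adjusted p = 0.045). H2-D1, Nlrc5 and Psmb8 did not pass. With 2 libraries on a side the count depended on single tumors, and it was 0 without replicate 1, 1 without replicate 4 and 3 without replicate 5.

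Of 15 other class I genes of the H2 complex, 5 were higher and 3 lower in replicates 4 and 5 than in replicates 1 to 3. The genes named here were chosen after their values were seen. H2-K2, an annotated class I pseudogene next to H2-K1, stood at 73.2 to 88.6 CPM in the 6 tumors of set A and at 12.3 to 22.8 CPM in the other 11 tumors. H2-Q1 stood at 23.8 to 35.2 CPM in set A and at 1.37 to 5.28 CPM in the others. Other relatives went the opposite way between the parts of d10, with H2-T23 (log2 fold change 0.73), H2-T22 (0.66), H2-Q6 (0.78), H2-Q2 (0.62) and H2-M3 (0.38) higher in replicates 4 and 5. H2-Q7 (-0.11, SE 0.108, adjusted p = 0.49) and H2-Q10 (-0.91, SE 0.394, adjusted p = 0.13), which with H2-Q5 shared the most 75-base stretches with H2-K1, did not pass, nor did H2-Q4 (-0.21, SE 0.111, adjusted p = 0.19). The part of these genes in the level of H2-K1 was not tested.

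**Figure D2:**
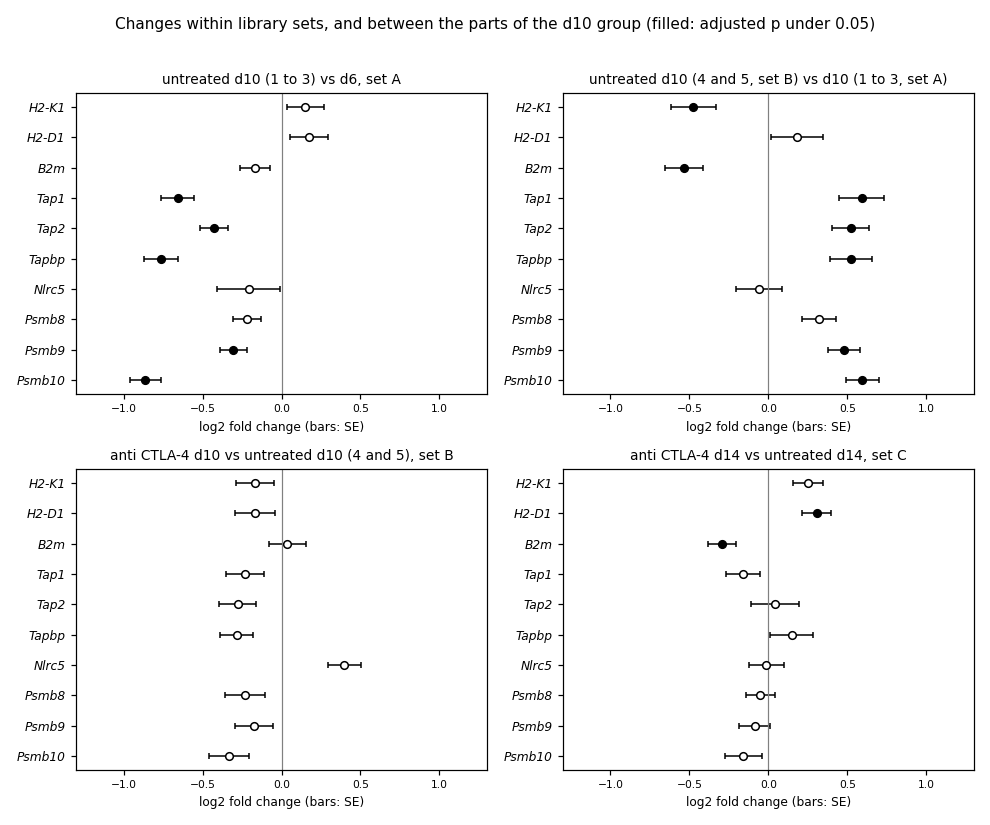
Log2 fold changes (horizontal axis, with SE) of the 10 members in the comparisons that lie within a library set and, at top right, between the parts of untreated d10. Filled points passed an adjusted p of 0.05, and the transporter and proteasome members lie to the left of 0 from d6 to d10 and to the right of 0 between the parts of d10.

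Anti CTLA-4 treatment was compared with no treatment on each day. At d10 no member passed. In edgeR's quasi-likelihood test 0 of 10 members passed against the 5 untreated d10 tumors, where 3 of 17258 genes (0.0174%) did and 2 members and 2329 genes had an unadjusted p under 0.05, and in DESeq2 0 members and 463 genes passed. Within set B, against replicates 4 and 5, edgeR again passed 0 members, with 108 of 17125 genes (0.631%) passing, and 4 members and 3290 genes at an unadjusted p under 0.05. DESeq2 was not run on these 5 tumors alone. The largest value there was that of Nlrc5, at 139.2, 111.6 and 126.5 CPM in the treated tumors and 96.5 and 93.5 CPM in the untreated ones (log2 fold change 0.40, SE 0.104, adjusted p = 0.13). Each treated value was above both untreated ones, and 37.6% of all genes had groups that did not overlap. The other members lay between -0.33 (Psmb10, SE 0.129, adjusted p = 0.22) and 0.04 (B2m, SE 0.116, adjusted p = 0.89). Against replicates 1 to 3 instead, which cross the sets, 4 members passed, where 29.6% of genes did, with Tap1 (0.38) and Psmb9 (0.33) higher and H2-K1 (-0.62) and B2m (-0.47) lower.

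At d14, where treated and untreated tumors lie in set C, H2-D1 was higher and B2m lower with treatment. These were 2 of 10 members, a smaller share than the 32.4% of 18062 genes that passed, and no result about the members as a set. H2-D1 stood at 2937, 2684 and 2722 CPM in treated and at 2380, 2072 and 2443 CPM in untreated d14 tumors (log2 fold change 0.31, SE 0.093, adjusted p = 0.039). B2m, the partner of all class I heavy chains, stood at 3446, 3222 and 3345 CPM in treated and at 4503, 4208 and 3817 CPM in untreated tumors (log2 fold change -0.29, SE 0.0894, adjusted p = 0.04). The groups of both genes did not overlap, which was so for 51.9% of all genes.

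H2-K1, at 616.9, 598.4 and 578.1 CPM in treated and 529.4, 450.7 and 558.1 CPM in untreated tumors, did not overlap either but did not pass (log2 fold change 0.25, SE 0.0949, adjusted p = 0.074). The other 7 members lay between -0.16 (Tap1, SE 0.108, adjusted p = 0.28) and 0.15 (Tapbp, SE 0.135, adjusted p = 0.42), with Nlrc5 at -0.01 (SE 0.108, adjusted p = 0.95). The 2 calls rested on few tumors, and 0 members passed without replicate 1 of untreated d14, without replicate 1 of treated d14, without replicate 2 of treated d14 or with all 5 groups in the fit, and 1 passed without replicate 3 of treated d14. Markers of T cells, macrophages and fibroblasts were higher over the same contrast, while of 4 B cell markers none passed higher and 1 passed lower. T cell markers summed to 168.6 to 189.1 CPM in treated and 64.8 to 115.9 CPM in untreated d14 tumors, with 5 of 5 passing higher. Macrophage markers summed to 1206 to 1474 against 580 to 784.8 CPM, with 5 of 6 passing higher, and fibroblast markers to 2837 to 4334 against 1291 to 2279 CPM, with 4 of 4 passing higher. Mesothelial markers summed to 1878 to 2096 against 2765 to 2833 CPM, with 2 of 7 passing higher and 3 lower. Their part in the levels of H2-D1 and B2m was not tested.

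Whether the effect of treatment differed between the days was tested with an interaction term. H2-K1 was the member that passed, as 1 of 10, where 17.7% of 18574 genes did. The difference, d14 minus d10, was 0.70 (SE 0.213, adjusted p = 0.037) on the log2 scale, with treatment effects of 0.25 at d14 and -0.46 at d10. The call was lost in 9 of the 14 fits that each left out a library, those without replicate 1 of untreated d10, replicate 1 or 2 of untreated d14 or any 1 of the 6 treated tumors. With replicates 4 and 5 as the untreated d10 tumors, so that each effect lies within a set, it was 0.41 (SE 0.152, adjusted p = 0.067), and in edgeR 0 members passed, with 4 at an unadjusted p under 0.05, where 24.9% of genes passed. DESeq2, run with all 5 untreated d10 tumors, passed H2-K1 as 1 member.

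The advanced phase was compared with the earlier phases across the sets. Against untreated d6, all 10 members passed at untreated d14, with Nlrc5 higher and the other 9 lower, where 51.5% of 17172 genes passed, 25.5% higher and 26% lower. Psmb10, at 212.9, 161.5 and 214.1 CPM at d14, had the largest fall, with a log2 fold change of -1.25 (SE 0.121, adjusted p = 9.8e-05). H2-K1 followed at -0.99 (SE 0.11, adjusted p = 1.7e-04), then Tapbp (-0.88), Tap2 (-0.76), B2m (-0.66), Psmb8 (-0.63), Tap1 (-0.53), Psmb9 (-0.50) and H2-D1 (-0.38). The count was 10 in every alternative run for this comparison. Since d6 lies in set A and d14 in set C, day and set cannot be told apart here.

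Nlrc5, the class I transactivator, went the other way. It stood at 110, 86.7 and 150.7 CPM at d6, and at 86.7, 90.7, 118.2, 96.5 and 93.5 CPM at untreated d10. At d14 it stood at 183.1, 209.6 and 213.3 CPM in untreated and at 169.3, 223.2 and 195.1 CPM in treated tumors. All 6 d14 tumors lay above all 11 earlier tumors, and the share of all genes that separate these 6 from these 11 was not counted. Among untreated tumors alone, 61.1% of genes had d14 and d6 groups that did not overlap, and 28.3% d14 and d10 groups. Between the parts of untreated d10, in sets A and B, Nlrc5 had a log2 fold change of -0.06 (SE 0.146, adjusted p = 0.78). All d14 tumors lie in set C, which that value does not cover, and day and set cannot be told apart for this gene. The log2 fold change of untreated d14 was 0.82 (SE 0.179, adjusted p = 0.0048) against d6 and 1.05 (SE 0.119, adjusted p = 0.0042) against d10.

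Between untreated d14 and untreated d10, 5 of 10 members passed, where 19.7% of 17659 genes did. Besides Nlrc5, these were H2-K1 (log2 fold change -0.96, SE 0.167, adjusted p = 0.0081), H2-D1 (-0.63, SE 0.14, adjusted p = 0.016), Psmb10 (-0.66, SE 0.202, adjusted p = 0.047) and Psmb8 (-0.55, SE 0.138, adjusted p = 0.025), all lower at d14. These 5 members passed with the same sign against replicates 1 to 3 (34% of genes passed) and against replicates 4 and 5 (33.2%). B2m passed only against replicates 1 to 3 (-0.48), and Tapbp, Tap1, Tap2 and Psmb9 only against replicates 4 and 5 (-0.66, -0.48, -0.87 and -0.68). Without replicate 1 or without replicate 2 of untreated d14, 2 members passed.

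Between treated d14 and treated d10, 10 of 10 members passed, where 46.6% of 17791 genes did, 23.3% higher and 23.3% lower. Nlrc5 was higher (log2 fold change 0.65, SE 0.112, adjusted p = 0.002) and the other 9 were lower, from Psmb10 (-0.83, SE 0.1, adjusted p = 6.1e-04) to Tapbp (-0.24, SE 0.0651, adjusted p = 0.015). With all 5 groups in the fit the count was 5, and without replicate 1 or without replicate 2 of treated d14 it was 6. Between treated d14 and untreated d10, which shares its controls with the comparison of untreated d14 with d10, 7 of 10 members passed, where 27.7% of 18057 genes did. Nlrc5 was higher (0.97, SE 0.128, adjusted p = 0.0021), and Psmb10 (-0.88), H2-K1 (-0.78), Psmb8 (-0.67), B2m (-0.66), Tap2 (-0.59) and Psmb9 (-0.56) were lower. Without replicate 2 of treated d14 this count was 3, and without replicate 3 it was 4. Against replicates 4 and 5 of untreated d10 all 10 passed, where 43.8% of 18460 genes did, with Tap1 (-0.69), Tapbp (-0.56) and H2-D1 (-0.49) lower besides the 7. Both comparisons cross the 3 sets, and the first and the last of these counts, like that of untreated d14 against replicates 4 and 5, lie within a set when B and C are joined.

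**Figure D3:**
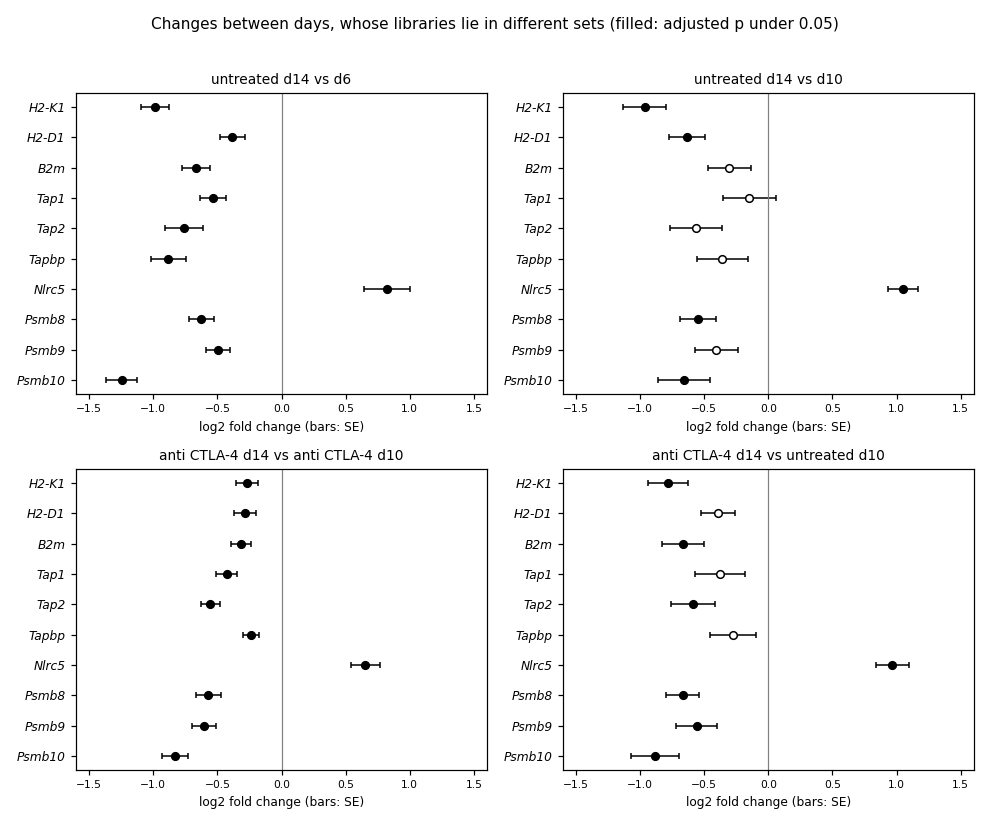
Log2 fold changes (horizontal axis, with SE) of the 10 members in the comparisons of d14 with earlier tumors, all of which cross the 3 library sets. Filled points passed an adjusted p of 0.05, and Nlrc5 is the member to the right of 0 that passed in each panel.

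The exchange of constitutive for immunoproteasome subunits was followed as the ratio of each interferon-induced subunit to the subunit it replaces, within each library. Over the 3 untreated days the Psmb8 to Psmb5 ratio differed (exact permutation F test over 11 tumors, p = 0.00931, adjusted p = 0.0279 over 3 ratios, smallest p possible 0.000108). The ratio of counts was 29.3, 31.3 and 29.5 at d6, then 31.9, 30.04, 43.0, 36.1 and 26.4 at d10, and 19.7, 18.8 and 25.8 at d14. Each untreated d14 tumor lay below each earlier untreated tumor. The treated tumors went the other way, with ratios of 20.1, 20.9 and 22.6 at d10 and of 28, 26.3 and 27.1 at d14. With replicates 4 and 5 as the only d10 tumors the test no longer passed (largest difference of means 0.54 on the log2 scale), and Psmb5 shares 36.8% of its 75-base stretches with other annotated genes, mostly a pseudogene.

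The other ratios did not pass over the untreated days, with p = 0.255 (adjusted p = 0.255) for Psmb9 to Psmb6 and p = 0.0725 (adjusted p = 0.109) for Psmb10 to Psmb7 in the exact permutation F test. Both had an unadjusted p under 0.05 once the parts of untreated d10 were kept apart. Psmb9 to Psmb6 had p = 0.00357 with replicates 1 to 3 and p = 0.025 with replicates 4 and 5 as the d10 tumors, and Psmb10 to Psmb7 had p = 0.0179 and p = 0.0464, in the same exact permutation test without adjustment. Psmb9 to Psmb6 was 1.66, 1.58 and 1.82 at d6 and 2.18, 2.02 and 2.56 at d14. At d10 this ratio was 1.39, 1.35 and 1.54 in replicates 1 to 3 and 2.46 and 2.29 in replicates 4 and 5. In treated tumors it was 2.21, 2.32 and 2.2 at d10 and 1.975, 1.92 and 2.1 at d14. The tumors of set A, untreated d6 and d10, thus stood at 1.35 to 1.82, and all tumors of sets B and C at 1.92 to 2.56. Psmb10 to Psmb7 was 2.08, 2.1 and 2.63 at d6 and 1.5, 1.15 and 1.74 at d14. At d10 it was 1.54, 1.59 and 1.71 in replicates 1 to 3 and 2.49 and 2.15 in replicates 4 and 5. From untreated d6 to untreated d14, across the library sets, Psmb9 to Psmb6 rose, while Psmb10 to Psmb7 and Psmb8 to Psmb5 fell. Day and library set cannot be told apart in these changes. Of 21 pairwise exact permutation tests between groups, two-sided, none passed after adjustment (smallest adjusted p = 0.188). With 3 tumors against 3 the smallest p such a test allows is 0.1.

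**Figure D4:**
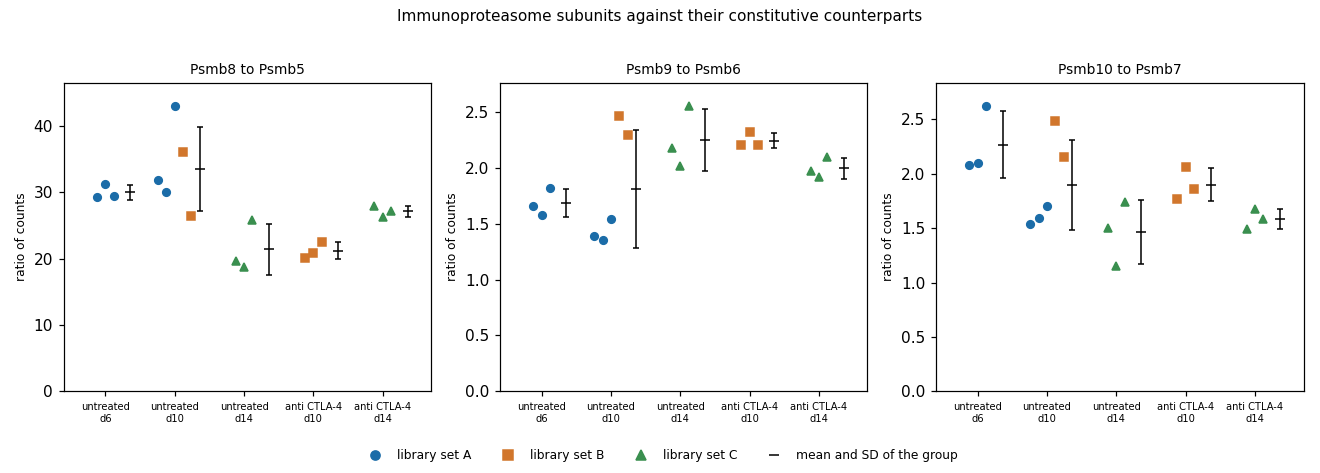
Ratio of counts (vertical axis, starting at 0) of each immunoproteasome subunit to its constitutive counterpart in each tumor, by group, with symbols for the library sets and the mean and SD in black. The Psmb8 to Psmb5 ratio is lowest in untreated d14 tumors and treated d10 tumors, and the other 2 ratios separate the parts of untreated d10.

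The rest of the pathway was followed with 12 lists of other genes, first from d6 to d10 within set A, where 15.2% of all genes passed higher and 11.8% lower. Of 11 other subunits of the 20S proteasome, which form the barrel around the catalytic sites, 10 passed and all were lower, led by Psma5 (log2 fold change -0.65), Psmb3 (-0.54) and Psmb4 (-0.49). Of the constitutive catalytic subunits, Psmb7 (-0.37) passed as 1 of 3. Of 7 genes of the PA28 activator and proteasome assembly, 3 were lower, Psme2 (-0.54), Psme1 (-0.42) and Psmg1 (-0.39). Of 17 genes of the 19S regulator, which unfolds substrates, 5 were lower, led by Psmd7 (-0.41), Psmc4 (-0.32) and Psmd12 (-0.31). The medians of these 4 lists lay between -0.37 and -0.22, and that of all genes tested was 0.01.

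Of 13 genes of peptide trimming and loading, 4 were lower and 1 higher in set A, and the aminopeptidases Lap3 (-0.59) and Erap1 (-0.47) and the chaperone Hspa5 (-0.40) moved most. Among class I genes outside the classical ones, H2-M2 (1.78) was higher, and H2-T24 (-1.21) and H2-T22 (-0.49) were lower, with 1 of 15 higher and 3 lower in all. The lipid-presenting Cd1d2 (2.48) and Cd1d1 (0.97) and the metabolite-presenting Mr1 (0.83) were higher, and 1 of the 5 in that list was lower. Of 12 regulators of class I transcription, 2 were lower, Irf2 (-0.34) and Nfyb (-0.33). Of 10 genes of the interferon gamma pathway, 2 were lower, Gbp2 (-0.41) and Cxcl9 (-0.41). The counts of these class I relatives, of the regulators and of the interferon gamma pathway lie near or below the 27% of all genes that passed. They are no result about these lists.

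Of the 12 lists, that of type I interferon genes had the lowest median, with 10 of 13 genes passing, each of those 10 lower, and a median log2 fold change of -2.08. They were led by Ifnb1 (-4.61), the interferon itself, and the induced antiviral genes Rsad2 (-3.57) and Ifit3 (-3.15). Ifnb1 was near the floor, with at most 66 counts and 1.34 CPM in any of the 17 libraries. Class II presentation, used by professional antigen-presenting cells, was higher in 7 of 9 genes, led by H2-Ab1 (1.35), H2-Eb1 (1.26) and H2-Aa (1.20). Of 7 genes of cross-presenting cells and of class I receptors, 4 were higher, led by the CD8 chains Cd8b1 (3.10) and Cd8a (3.08) and by Klrd1 (2.84), a chain of receptors for class I on natural killer and T cells.

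With treatment at d14, within set C, 17.7% of all genes passed higher and 14.8% lower. In the proteasome lists the genes that passed were lower. Of 11 other 20S subunits, 6 were lower, led by Psma2 (-0.32), Psmb1 (-0.30) and Psma5 (-0.28), and of the constitutive catalytic subunits 2 of 3 were, Psmb5 (-0.40) and Psmb7 (-0.28). Of the PA28 and assembly genes 2 of 7 were lower, Psme2 (-0.63) and Pomp (-0.34), and of the 19S regulator 5 of 17, led by Psmd14 (-0.38), Psmc6 (-0.33) and Psmc2 (-0.30). None of these 4 lists had a gene that passed with a higher level. Of trimming and loading genes 5 of 13 were lower, led by Blmh (-0.30), Tpp2 (-0.29) and Canx (-0.26).

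Among class I relatives at d14, H2-Q1 (-0.90) was lower with treatment, and H2-Q10 (0.50) and H2-Q2 (0.34) were higher, as part of 2 higher and 2 lower of 15. Cd1d2 (1.61), Cd1d1 (1.45) and Fcgrt (1.13), the neonatal receptor for immunoglobulin G, were higher, as 3 of 5. In the interferon gamma pathway 3 of 10 were higher and 1 lower. Ifng itself (1.06) and its receptor chain Ifngr1 (0.37) were among the higher ones, and Gbp2 (-0.46) was the lower one. Of 12 type I interferon genes 6 were lower and 1 higher, led by Ifit3 (-0.84), Ifit1 (-0.84) and Mx1 (-0.83). Class II genes were higher in 3 of 9, H2-Oa (1.29), H2-Ab1 (1.15) and H2-Eb1 (0.79), and Pirb (1.15), Cd8b1 (1.09) and Cd8a (0.95) led 4 higher of 7 genes of cross-presenting cells and class I receptors. Of the regulators of class I transcription, Nfkb1 (0.24) was higher and Nfyb (-0.32) lower, as 2 of 12. The counts of the class I relatives and of these regulators lie below the 32.4% of all genes that passed.

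**Figure D5:**
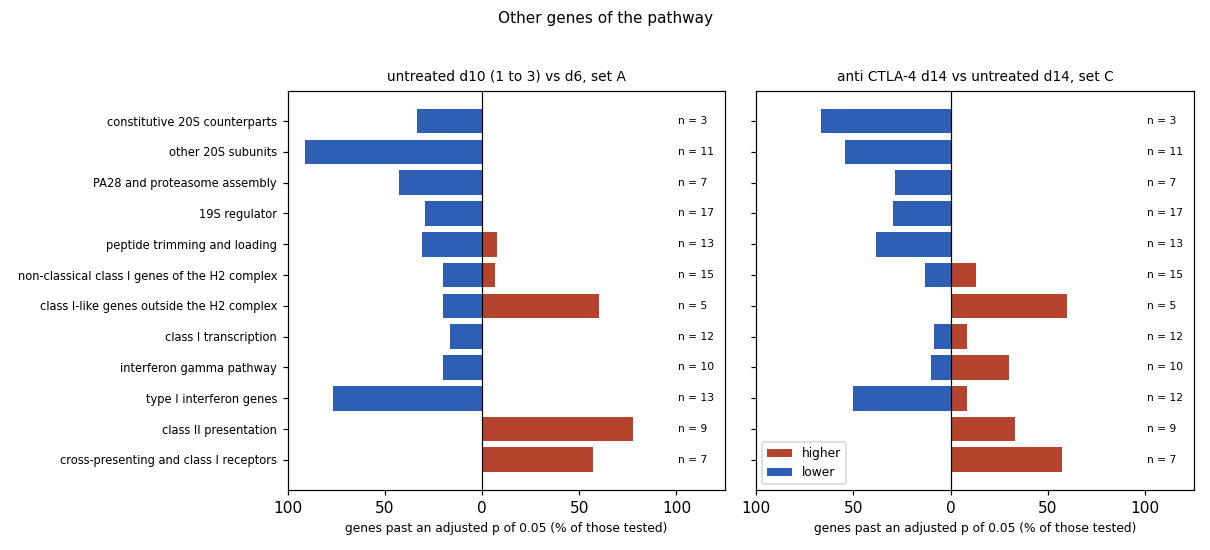
Share of the genes of each list that passed an adjusted p of 0.05 with a higher level (right of 0) or a lower level (left of 0), from d6 to d10 within set A and with treatment at d14 within set C, with the number tested at the right. The other 20S subunits lie to the left in both panels, and the class II genes to the right. At d14 the share of class II genes that passed is near the 32.4% of all genes.

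Lastly, the members were compared in shape over the 17 libraries, by the root mean square difference between a gene's centred log2 CPM and the median profile of the 10 members. Psmb8 (0.0818), Psmb9 (0.0861), Tap2 (0.0897), Tap1 (0.133) and Tapbp (0.148) lay nearest to that profile, H2-D1 (0.220) and Psmb10 (0.240) further off, and B2m (0.312), H2-K1 (0.314) and Nlrc5 (0.724) furthest. Since the members make up the profile, their own distances describe how alike they are and no more. Of 9539 other protein coding genes with at least 10 CPM on average, those near the profile included Akr1a1 (0.0823), Creb3 (0.0893), Pigx (0.0950) and Dapk3 (0.0960). The median distance of these candidates was 0.351. The libraries share sets and differ in depth and in markers of other cells, and the part of these in the profile was not tested.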

How the data were processed

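RNA was extracted with TRIzol and made into libraries with the KAPA RNA HyperPrep kit, and the authors sequenced paired ends of 75 or 100 bases. The deposited table holds raw counts per gene. The authors made it by aligning reads to GRCm38 (mm10) with TopHat2 (2.0.14), keeping uniquely mapped reads, and counting them with HTSeq on Gencode vM21, with a strand setting not given in the sources used here. The table covers 55450 genes, all of them found in that annotation, of which 20211 had no count. Total counts were 46371577 to 96759833 per library (median 72413343), and the 17 libraries are separate tumors from separate mice.

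Groups were taken from the sample labels. Counts were tested with edgeR 4.0.16 (quasi-likelihood test, filterByExpr, TMM normalization) in R 4.3.3, with the groups compared in each fit and Benjamini-Hochberg adjustment over all genes tested. A gene passed at an adjusted p under 0.05, and a log2 fold change is given with its SE. Normalized CPM used TMM factors over the 17 libraries. Ratios were compared on log2 (counts + 0.5) with exact permutation tests. Library sets came from average linkage on the correlation distance between libraries of 244 processed pseudogenes above 0.5 CPM on average, cut into 3 sets, and with 2 sets B and C joined. Alternatives were DESeq2 1.42.0, no TMM, other filters on low counts, protein coding genes, all groups in a fit, a replicate block, parts of untreated d10 and each library left out. Libraries of a group differed by more than sampling noise (chi-square per gene of at least 18.5 in each pair). Replicate numbers did not pair the samples.

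The 10 members are named in every comparison. From each of 12 lists the counts were given and the 3 genes with the largest changes among those that passed were to be named. Such names are printed for d10 against d6 within set A and for treatment at d14, and the other comparisons have counts, to keep the text to the members. The members, lists and sets were chosen with earlier results of these data known. No table of protein sequences was used here. Of the 5 protein coding genes outside the members that lay nearest to their median profile, 1 is not reported here.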

Additional observations from a re-analysis of the deposited data

Results flagged for a closer look

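For H2-K1 the difference in the effect of anti CTLA-4 treatment between the days passed with all 5 untreated d10 tumors, where 17.7% of 18574 genes passed. The call was lost in most of the fits that each left out a library. The interaction term of edgeR's quasi-likelihood test was 0.70 on the log2 scale (d14 minus d10, SE 0.213, adjusted p = 0.037). The treated d14 tumors lay above the untreated ones in 3 of 3 cases, and at d10 the treated tumors, at 645.1, 770.7 and 763.4 CPM, lay below untreated replicates 1 to 4, while untreated replicate 5, at 769.4 CPM, lay just below the highest treated tumor. Within library sets, with replicates 4 and 5 as the untreated d10 tumors, the difference was 0.41 (SE 0.152, adjusted p = 0.067). The effect at d10 alone was then -0.17 (SE 0.12, adjusted p = 0.46). H2-K2, a class I pseudogene beside H2-K1, stood at 73.2 to 88.6 CPM in set A and 12.3 to 22.8 CPM in the other tumors, and its part in this difference was not tested. In the untreated d10 group, 13 values (the members and the ratios) were examined for a tumor standing apart from the other 4, and none did.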

How the results depend on the processing

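No member changed sign while past the threshold. Of 1300 values of a member under an alternative, 1078 kept their sign and their side of the threshold, 88 no longer passed, 49 newly passed and 85 changed sign without passing in either fit. The counts of members that passed moved as follows. For untreated d10 against d6, 1 became 2 in DESeq2, 0 with all genes of at least 1 count, 3 with all 5 groups in the fit, 2 with protein coding genes, 5 with replicates 1 to 3 and 2 with replicates 4 and 5 of d10, and 0 to 3 with a library left out. For untreated d14 against d10, 5 became 6 with replicates 1 to 3, 9 with replicates 4 and 5 and 2 to 5 with a library left out. For treated against untreated d10, 0 became 4 with replicates 1 to 3. For treated against untreated d14, 2 became 1 with at least 10 counts in every library, 0 with all 5 groups and 0 to 3 with a library left out. For treated d14 against untreated d10, 7 became 10 with replicates 4 and 5 and 3 to 8 with a library left out. Treated d14 against d10 gave 5 with all 5 groups and 6 to 10 with a library left out. For the interaction, 1 became 0 with all genes of at least 1 count, 3 with replicates 1 to 3, 0 with replicates 4 and 5, and 0 to 2 with a library left out. For replicates 4 and 5 against 1 to 3 of untreated d10, 7 became 0 to 6, and for replicates 1 to 3 of d10 against d6, 5 became 4 to 5, with a library left out. The causes were not tested.

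In no comparison did all pairs of same-numbered replicates have deviations correlated above 0.1, so that the numbers were not taken to pair the tumors. With a replicate block the counts were 5 for d10 against d6, 3 for untreated d14 against d10, 5 and 0 for treated against untreated at d10 and d14, 6 for treated d14 against d10 and 2 for the interaction. In the block fits with the 5 untreated d10 tumors, replicates 4 and 5 have no partner of the same number.

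The largest difference between the means of the untreated days, on the log2 scale, was 0.64 for Psmb8 to Psmb5, and 0.54 without a call with replicates 4 and 5 of d10 (0.54 to 0.78 with a library left out). It was 0.41 for Psmb9 to Psmb6 (0.32 to 0.49), 0.65 with replicates 1 to 3 and 0.50 with replicates 4 and 5. In both parts the unadjusted p of the exact permutation F test was under 0.05. The largest difference was 0.64 for Psmb10 to Psmb7 (0.48 to 0.78), 0.64 with replicates 1 to 3 and 0.68 with replicates 4 and 5. Here too the unadjusted p of that test was under 0.05 with either part. The fits without d10 replicate 4 and without d14 replicate 3 were past the threshold.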

Other observations

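From untreated d6 to untreated d14, which cross library sets, the proteasome lists were mostly lower. Of the other 20S subunits 10 of 11 were lower and none higher, of the 19S regulator 15 of 17 and none higher, of the PA28 and assembly genes 4 of 7 with 1 higher, and of trimming and loading 8 of 13 with 1 higher, where 26% of all genes were lower. In treated tumors from d10 to d14 the corresponding counts of lower genes were 10 of 11, 17 of 17, 5 of 7 and 8 of 13, where 23.3% of all genes were lower. Of the type I interferon genes 11 of 13 were lower from d6 to d14 with a median of -2.05, and 3 of 12 were lower in treated tumors from d10 to d14. Day and library set cannot be told apart in these counts.

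Between the parts of untreated d10 the other lists gave the following counts. Of the other 20S subunits 3 of 11 were higher and 2 lower in replicates 4 and 5, of the 19S regulator 2 of 17 higher and 1 lower, and of the interferon gamma pathway 0 of 10 higher and 1 lower, while 5 of the 10 members were higher and 2 lower (12.4% of all genes were higher and 12.9% lower). The difference between the members and these lists was not tested.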
